A study of Homo sapiens with 6 samples.

Results

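10 genes of the neuroendocrine and neuronal secretory programme were followed through 6 human prostate cancer cell lines. They are the granins CHGA, CHGB, VGF and SCG5, the vesicle membrane protein SYT4 and the synaptic organiser CBLN2. The others are the ubiquitin hydrolase UCHL1, the cytoskeletal regulator DPYSL2 and the neurofilaments NEFM and NEFL. The 10 were listed by name out of 60658 gene identifiers. Of them 7 reached 1 FPKM (fragments per kilobase of transcript, scaled to the mapped fragments of each library) in at least 1 library, and CHGA, CHGB and SCG5 did not. C4-2B, a castration-resistant line with luminal features, gave rise to docetaxel-resistant TaxR cells kept in 5 nM docetaxel, and TaxR to CabR cells kept in 5 nM cabazitaxel. DU145, a line without them, gave rise in the same way to DTXR under 5 nM docetaxel and to CTXR under 5 nM cabazitaxel. Both drugs belong to the taxanes, which stabilise microtubules. All 6 lines were grown in the same serum-supplemented medium and received no further treatment before harvest. The parental lines carried no drug selection. The series compares resistant with parental cells, and with 1 library per line a ratio of 1 line to another is unreplicated and carries no p-value. In such bulk RNA a change in the share of expressing cells and one in RNA per cell cannot be told apart. The labels do not say whether a subline is a clone or a pool, and they add the word old to TaxR without explaining it.

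Neuroendocrine cells store peptide hormones in dense-core granules. Granins such as CHGA and CHGB help to form the granules and are cut by prohormone convertases into peptides. Several synaptotagmins sense the calcium that triggers release. Prostate adenocarcinoma can take on such a programme under therapy, and pathologists recognise it by chromogranin A, synaptophysin, NCAM1 and neuron-specific enolase. Several of the same genes, among them UCHL1, DPYSL2 and the neurofilaments, are also active in neurons and in cells without granules.

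The promoters below are those the later values turn on. VGF and CHGA share a cAMP response element, CRE, whose letters TGACGTCA were found in both of these members. SYT4 and CBLN2 were higher together in TaxR and CabR, and UCHL1 was the most abundant member in the DU145 lineage, as SYT4 was in the other. Each line gives the 250 bases before the RefSeq transcription start on GRCh38.p14, read 5′ to 3′ on the gene's strand. Capitals mark a CRE (TGACGTCA), a TATA box (TATAAA) or an arm of RE1 (TCAGCACC or GGACAGCG, pieces of the element bound by the neuronal repressor REST), on either strand.
VGF, chr7:101165570-101165819, minus strand: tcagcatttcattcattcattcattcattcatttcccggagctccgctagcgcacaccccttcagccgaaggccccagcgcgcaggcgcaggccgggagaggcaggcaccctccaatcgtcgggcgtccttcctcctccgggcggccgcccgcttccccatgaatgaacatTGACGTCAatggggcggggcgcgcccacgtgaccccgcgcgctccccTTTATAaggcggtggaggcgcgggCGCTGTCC
CHGA, chr14:92922900-92923149, plus strand: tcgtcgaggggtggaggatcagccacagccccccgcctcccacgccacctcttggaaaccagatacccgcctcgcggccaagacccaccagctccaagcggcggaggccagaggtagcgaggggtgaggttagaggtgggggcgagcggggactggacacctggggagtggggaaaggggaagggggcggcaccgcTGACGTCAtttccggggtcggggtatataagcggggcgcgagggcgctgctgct
SYT4, chr18:43277491-43277740, minus strand: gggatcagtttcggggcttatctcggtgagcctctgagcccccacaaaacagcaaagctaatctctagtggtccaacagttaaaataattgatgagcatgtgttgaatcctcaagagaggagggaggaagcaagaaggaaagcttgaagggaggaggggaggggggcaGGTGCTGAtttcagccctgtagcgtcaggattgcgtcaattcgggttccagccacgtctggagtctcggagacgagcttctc
CBLN2, chr18:72544343-72544592, minus strand: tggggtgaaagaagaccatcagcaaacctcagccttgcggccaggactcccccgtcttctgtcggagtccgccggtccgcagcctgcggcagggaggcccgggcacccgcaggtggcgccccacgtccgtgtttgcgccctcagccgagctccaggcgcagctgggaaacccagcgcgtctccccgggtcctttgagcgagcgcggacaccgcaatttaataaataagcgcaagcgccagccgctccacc
UCHL1, chr4:41256678-41256927, plus strand: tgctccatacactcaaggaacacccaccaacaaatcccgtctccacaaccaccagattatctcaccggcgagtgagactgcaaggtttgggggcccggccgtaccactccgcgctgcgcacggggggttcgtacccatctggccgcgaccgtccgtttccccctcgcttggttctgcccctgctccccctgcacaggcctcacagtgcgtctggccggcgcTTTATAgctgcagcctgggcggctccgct

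The table of RefSeq promoters matched 6 of the 10 members, namely these 5 and SCG5. Counting from the start, the CRE began at position -79 of VGF and -54 of CHGA, and 1.85% of all 35116 promoter windows held one. The TATA letters began at -32 of VGF and -29 of UCHL1, in the reverse orientation, and 11.5% of windows held them. An arm of RE1, also reversed, began at -82 of SYT4 and the other arm at -8 of VGF. These letters occurred in 1.67% and 1.63% of windows. CBLN2 held none of these, and of the other motifs searched an E-box, CAGCTG, at -92 (17.9% of windows). A match describes letters only and is not a binding site.

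Before the values, the lines were checked against their markers. All 11 genes of a luminal list reached 1 FPKM in each C4-2B-lineage library, against 5 of 11 in each DU145-lineage library. Of 10 DU145-side markers, all 10 reached 1 FPKM in each DU145-lineage library, against 2 in C4-2B and 2 in CabR. TaxR went against this, with 9 of 10 at 1 FPKM or more and, like CabR, had none listed at 0, where C4-2B had 4 at 0 (S100A6, ANXA1, CAV2 and DKK1). Their summed level was 93.3 FPKM in TaxR, 68.4 in C4-2B, 45.3 in CabR and 2426 to 3210 in the DU145 lineage. Relative depth could be read from genes of few fragments. Taking C4-2B as 1, TaxR had 1.09, CabR 1.26, DU145 1.13, DTXR 1.22 and CTXR 1.52. The commonest low value of genes with a single transcript was 0.0471 to 0.0711 FPKM per kilobase, so levels well under 1 FPKM rest on few fragments.

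The chromogranins that define neuroendocrine cells were at or near 0 in every line. CHGA (chromosome 14, 92923080 to 92935293, plus strand) reached 0.0815 FPKM in DU145 and 0.0261 in TaxR, and the remaining 4 libraries list it at 0. CHGB (chromosome 20, 5911430 to 5925361, plus strand) had 0.0170 FPKM in C4-2B and 0.0155 in TaxR and was listed at 0 in the other 4. The CHGB values of C4-2B and TaxR differed 1.096-fold, beside a relative depth of 1.09, and rest on very few fragments. SCG5, the convertase chaperone 7B2 (chromosome 15, 32641676 to 32697098, plus strand), stayed under 1 FPKM throughout. Its levels were 0.958, 0.274 and 0.289 FPKM from C4-2B to CabR and 0.0788, 0.617 and 0.606 from DU145 to CTXR. SCG5 was thus lower in both C4-2B sublines and higher in both DU145 sublines than in their parents, at levels where the size rule below cannot call it. The name neuroendocrine is therefore not borne out by these defining members, and the genes are described one by one.

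**Figure D1:**
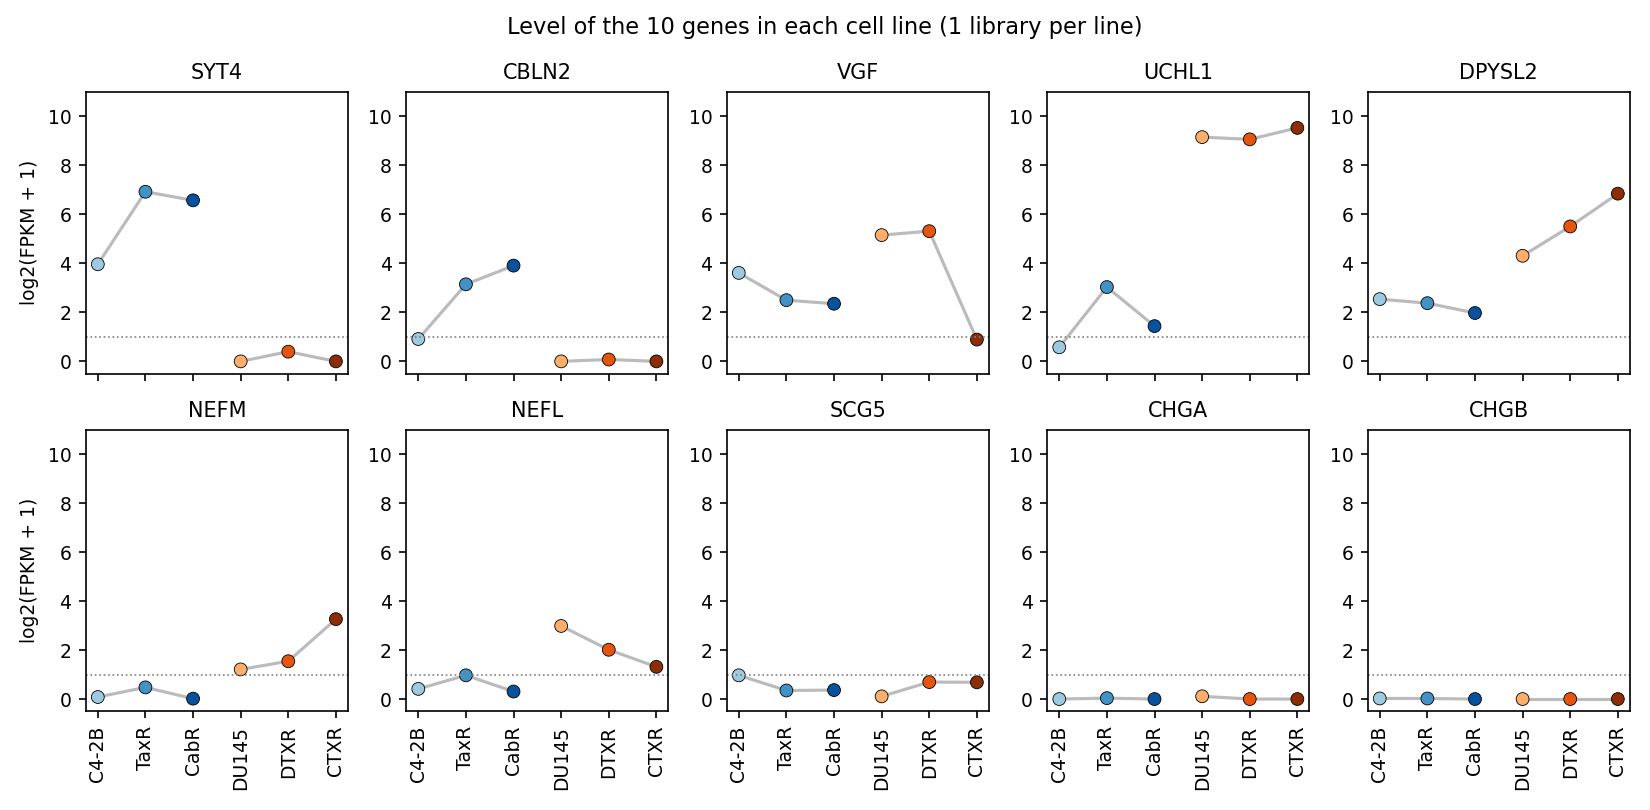
Level of each of the 10 genes, as log2(FPKM + 1), in the 6 libraries. Grey lines join the libraries of a lineage, the dotted line marks 1 FPKM, and CHGA, CHGB and SCG5 stay under it in all 6 libraries while SYT4 and CBLN2 exceed it only in the C4-2B lineage.

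Ratios were taken as log2 of (FPKM + 1), a scale that understates changes of low genes, and a gene was called higher or lower at a log2 ratio of at least 1 in size. In TaxR against C4-2B, 3 of the 10 members were higher (SYT4, UCHL1 and CBLN2), beside 2.52% of 17436 measured genes, and 1 was lower (VGF), beside 5.64% (8.16% in either direction). In CabR against C4-2B, 2 were higher (SYT4 and CBLN2; 2.67% of measured genes) and 1 lower (VGF; 6.2%; either direction 8.87%). From TaxR to CabR none was higher (1.75%), and UCHL1 alone was lower (1.84%; either 3.59%). In DTXR against DU145, DPYSL2 alone was higher (5.37%) and none was lower (5.1%; either 10.5%). In CTXR against DU145, DPYSL2 and NEFM were higher (7.45%) and VGF and NEFL lower (5.47%; either 12.9%). From DTXR to CTXR, DPYSL2 and NEFM were higher (7.29%) and VGF lower (5.25%; either 12.5%). No member was called higher in resistant sublines of both lineages, and VGF alone was called lower in sublines of both. The share of all measured genes called in both lineages was not taken, so these overlaps have no background and are descriptions only. The comparisons within a lineage share their libraries and are not independent, and the members were listed with earlier results of these data known.

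**Figure D2:**
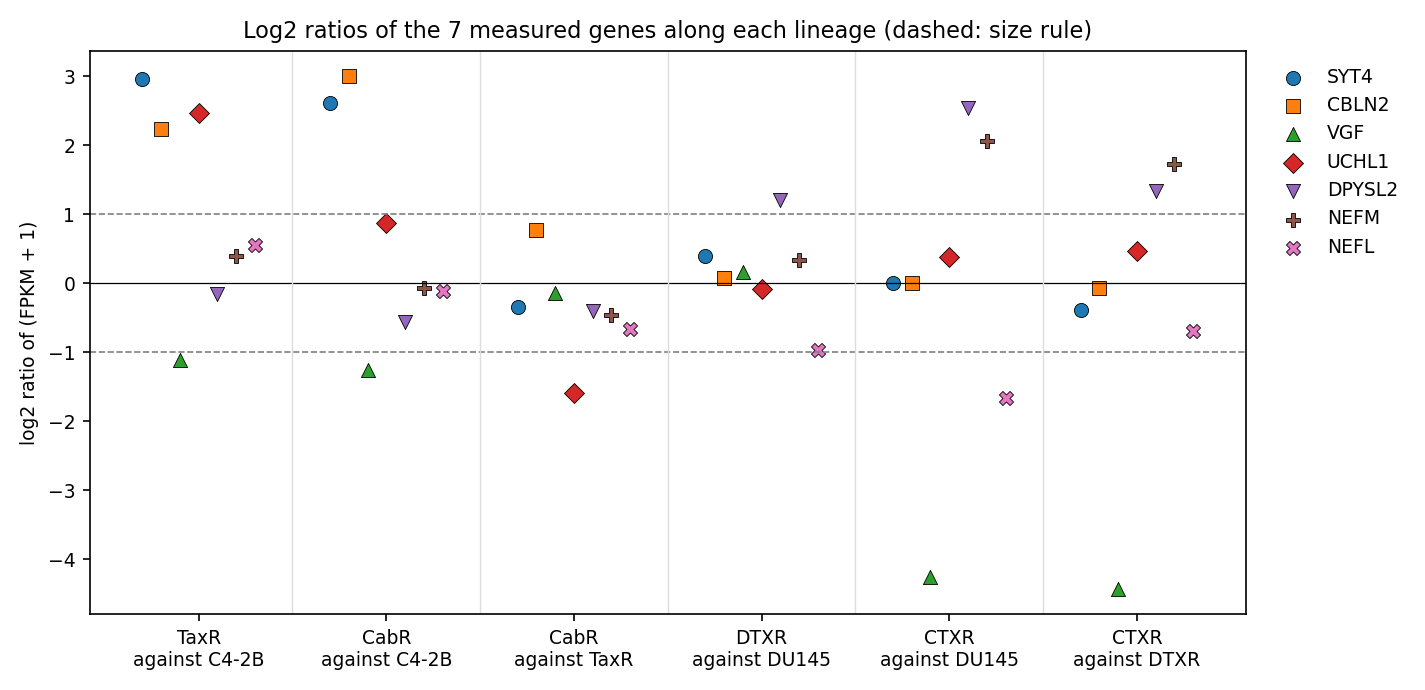
Log2 ratios of (FPKM + 1) for the 7 members that reached 1 FPKM, in the 6 comparisons along the lineages, with dashed lines at the size rule of 1. SYT4 and CBLN2 lie above the rule in TaxR and CabR, DPYSL2 lies above it in DTXR and CTXR, and VGF in CTXR reaches -4.27.

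SYT4 is a synaptotagmin, a vesicle membrane protein that takes part in the fusion of dense-core vesicles (chromosome 18, 43267878 to 43277650, minus strand). It had 14.6, 120.7 and 94.4 FPKM from C4-2B through TaxR to CabR. In the DU145 lineage it was listed at 0 in DU145 and CTXR and had 0.316 FPKM in DTXR. The resistant C4-2B sublines were 8.25-fold and 6.45-fold above their parent in FPKM, with log2 ratios of 2.96 and 2.61. Only a small share of measured genes had a higher ratio, since 99.9% were below SYT4 in both comparisons. In TaxR the SYT4 level exceeded that of 95.8% of measured genes. From TaxR to CabR the log2 ratio was -0.35, inside the size rule. No other measured coding gene lies within 1 Mb of SYT4, so the region around it gives no further values.

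CBLN2, a secreted cerebellin that links presynaptic neurexins to postsynaptic receptors (chromosome 18, 72536680 to 72638521, minus strand), was higher in the same libraries. It had 0.884, 7.86 and 14.0 FPKM from C4-2B through TaxR to CabR. It was listed at 0 in DU145 and CTXR and had 0.0549 FPKM in DTXR. Its log2 ratios were 2.23 in TaxR and 3.0 in CabR, the latter above 99.9% of measured genes. The step from TaxR to CabR was 0.76, inside the rule and opposite in sign to that of SYT4. CBLN2 is on the same chromosome as SYT4 but far from it, and the single measured coding neighbour within 1 Mb had a log2 ratio of -0.0046 in TaxR. Of the other cerebellins, CBLN1 and CBLN4 were listed at 0 in all 6 libraries, and CBLN3 had 0.567, 0.875 and 1.42 FPKM from C4-2B through TaxR to CabR.

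VGF, a granin-like precursor of several neuropeptides (chromosome 7, 101162509 to 101165593, minus strand), was lower in 3 of the 4 resistant sublines. It had 11.2, 4.66 and 4.11 FPKM from C4-2B through TaxR to CabR, with log2 ratios of -1.11 and -1.26 to C4-2B. In the other lineage it had 34.7, 38.9 and 0.853 FPKM from DU145 through DTXR to CTXR. DTXR and DU145 were thus close, at a log2 ratio of 0.16, and CTXR stood apart from both, at -4.27 to DU145 and -4.43 to DTXR. In FPKM DU145 exceeded CTXR 40.6-fold. Of 17436 measured genes, only 0.0287% had a lower ratio in CTXR against DU145. Of 38 measured coding genes within 1 Mb of VGF, 1 was higher and 3 lower in CTXR against DU145 (7.45% and 5.47% of measured genes). Their median was -0.28, so the neighbours did not follow VGF in size. VGF and CHGA both hold the CRE letters shown above, and CHGA was not above 0.0815 FPKM in any line.

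The enzymes and granins around VGF were read from a list of 11 granin and prohormone processing genes, of which 4 reached 1 FPKM. The convertase PCSK1 was listed at 0 in all 6 libraries, PCSK2 reached 0.0249 FPKM at most, and SCG2 and SCG3 stayed under 1 FPKM. PCSK1N, the proSAAS inhibitor of PCSK1, was lower in both resistant DU145 sublines, with 52.9, 24.7 and 18.9 FPKM from DU145 through DTXR to CTXR. In C4-2B, TaxR and CabR it had 20.01, 17.2 and 15.8 FPKM. Carboxypeptidase E, CPE, which trims the cut peptides, had 9.55 to 9.93 FPKM in the DU145 lineage and 13.4 to 20.5 in the C4-2B lineage, with no call. PAM, the enzyme that amidates peptide ends, ranged over 76.8 to 107.2 FPKM in the DU145 lineage and 6.03 to 9.09 in the other. Against the parents, the list's median log2 ratio was -0.06 for TaxR, -0.31 for CabR, 0.10 for DTXR and -0.87 for CTXR, beside medians over all measured genes of 0.00 in each.

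UCHL1, a ubiquitin hydrolase abundant in neurons (chromosome 4, 41256413 to 41268455, plus strand), separated the lineages. It had 570.3, 535.3 and 740.2 FPKM from DU145 through DTXR to CTXR, above 99.3% to 99.4% of measured genes. In the C4-2B lineage it had 0.490, 7.19 and 1.71 FPKM from C4-2B through TaxR to CabR. The parents differed by 8.58 on the log2 scale, and of 10 members 5 were higher in DU145 than in C4-2B (17.3% of measured genes) and 1 lower (19.5%; either 36.7%). Against DU145, DTXR stood at a log2 ratio of -0.09 and CTXR at 0.38. Its paralogs UCHL3 and UCHL5 and the related BAP1 were not called in any comparison along the lineages. UCHL1-AS1, which overlaps the start of UCHL1 on the other strand by 315 bases, stayed at or under 0.876 FPKM.

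The UCHL1 level of TaxR was set beside that of other genes typical of DU145. The rule took genes of at most 0.1 FPKM in C4-2B and CabR and at least 50 FPKM in each DU145-lineage library, and it found 3 genes (ANXA1, CAV1 and SYNE1). In TaxR these stood at 1.38% to 2.03% of their DU145 level, with a median of 1.81%. With at least 20 FPKM in the DU145 lineage 24 genes qualified, all above 0 in TaxR, with a median share of 1.34% and quartiles of 0.869% and 1.84%. The UCHL1 share was 1.26%, and 10 of the 24 genes had a lower one. In CabR the UCHL1 level was 0.301% of that of DU145. UCHL1 itself exceeded 0.1 FPKM in C4-2B and CabR, so it does not meet the rule that chose these genes. When 1.34% or 1.81% of the DU145 level was subtracted from TaxR, no UCHL1 remained (0 FPKM, log2 ratio -0.58 to C4-2B). Negative results were set to 0, as here, so this ratio reflects only the C4-2B level. At the lower quartile share 2.24 FPKM remained, and UCHL1 was still called higher. SYT4 and CBLN2, listed at 0 in DU145, were unchanged by the subtraction, at 120.7 and 7.86 FPKM. NEFL kept 0.832 of 0.957 FPKM and NEFM 0.368 of 0.391 FPKM in TaxR at the 1.81% share. VGF kept 4.03 of 4.66 FPKM and DPYSL2 3.85 of 4.19 FPKM.

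**Figure D3:**
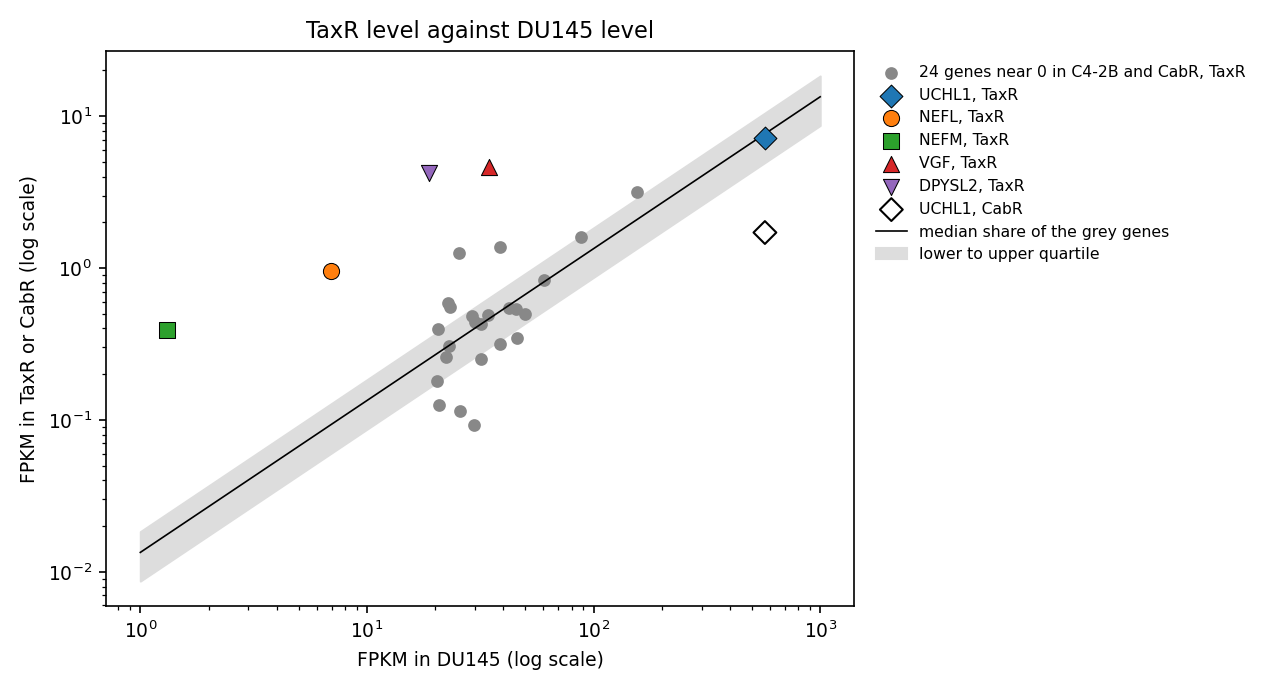
FPKM in TaxR (filled symbols) or CabR (open diamond) against FPKM in DU145, both on log scales. Grey points are 24 genes near 0 in C4-2B and CabR, the line is their median share of 1.34% and the band spans its quartiles; UCHL1 in TaxR lies in the band, and NEFL, NEFM, VGF and DPYSL2 lie above it.

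DPYSL2, also called CRMP2, binds tubulin dimers and promotes microtubule assembly in growing axons (chromosome 8, 26514022 to 26658178, plus strand). It was higher at each step of the DU145 lineage, with 18.9, 44.6 and 114.3 FPKM from DU145 through DTXR to CTXR. The log2 ratios were 1.20 in DTXR and 2.54 in CTXR to the parent, and 1.34 from DTXR to CTXR. In the C4-2B lineage it went the other way within the rule, with 4.82, 4.19 and 2.93 FPKM from C4-2B through TaxR to CabR. Levels of all 3 DU145-lineage libraries were above those of all 3 C4-2B-lineage libraries. Of the other 4 collapsin response mediators, DPYSL3 had 17.1 to 20.9 FPKM in the DU145 lineage with no call there. DPYSL4 was lower in both C4-2B sublines, with 14.4, 5.49 and 3.78 FPKM from C4-2B through TaxR to CabR, and stayed under 1 FPKM in the DU145 lineage. CRMP1 stayed under 1 FPKM in all 6 libraries, and DPYSL5 was not called along either lineage. DPYSL2 overlaps the gene PNMA2 by 71 bases on the opposite strand. PNMA2 had 22.4, 39.8 and 73.3 FPKM from DU145 through DTXR to CTXR, and whether the counting used strand is not known here.

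The neurofilament genes NEFM and NEFL encode the medium and light chains that assemble together in axons, and they lie side by side on chromosome 8 (24913012 to 24919098, plus strand, and 24950955 to 24957110, minus strand). NEFM had 1.31, 1.92 and 8.60 FPKM from DU145 through DTXR to CTXR, and was called higher in CTXR at log2 ratios of 2.05 to DU145 and 1.72 to DTXR. NEFL differed in the opposite direction in the same cells, with 6.92, 3.03 and 1.49 FPKM from DU145 through DTXR to CTXR. Its log2 ratio was -1.67 in CTXR, a call, and -0.97 in DTXR, just inside the rule. Upper-quartile scaling made the DTXR value -1.04, a call. NEFL was thus above NEFM in DU145 and DTXR, and NEFM above NEFL in CTXR. In C4-2B, TaxR and CabR NEFM had 0.0591, 0.391 and 0.0110 FPKM and NEFL 0.333, 0.957 and 0.237, all under 1 FPKM. An antisense RNA overlapping NEFM, AF106564.1, had 3.45, 1.73 and 3.71 FPKM from DU145 through DTXR to CTXR. Its CTXR level was close to that of DU145, but without knowledge of strand the reads of the 2 genes cannot be told apart. The same limit holds for NEFL and AC107373.2, which overlaps it by 490 bases on the opposite strand. AC107373.2 had 0.368, 2.01 and 0.256 FPKM from DU145 through DTXR to CTXR.

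The other neuronal intermediate filament genes differed in both directions. INA, alpha-internexin, was listed at 0 in DTXR and CTXR against 4.77 FPKM in their parent. NES, the progenitor filament nestin, was higher in TaxR, CabR and CTXR, with 2.25, 7.84 and 7.22 FPKM from C4-2B through TaxR to CabR and 0.469, 0.770 and 4.59 in DU145, DTXR and CTXR. PRPH, peripherin, was lower in CabR, with 10.8, 4.96 and 2.10 FPKM from C4-2B through TaxR to CabR. NEFH, the heavy neurofilament chain, stayed at or under 0.0641 FPKM. Against the parents, 1 of 5 measured filament genes was higher and 0 lower in TaxR (2.52% and 5.64% of measured genes). CabR had 1 and 1 (2.67% and 6.2%), DTXR 0 and 1 (5.37% and 5.1%), and CTXR 2 and 2 (7.45% and 5.47%).

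Genes near the 3 chromosome 8 members were read in order along the chromosome. Of the 6 measured coding genes within 1 Mb of NEFL, 5 were higher in CTXR than in DTXR, beside 7.29% of all measured genes. The median log2 ratio of the 6 was 1.75. The 5 include NEFM itself. Against DU145 4 of the 6 were higher (7.45%). Around NEFM, where NEFL takes the place of NEFM, 4 of 6 were higher against DTXR. Against DU145 that window had 3 higher and 1 lower (7.45% and 5.47%). KCTD9 had 29.1, 28.95 and 116.9 FPKM from DU145 through DTXR to CTXR. CDCA2 had 12.2, 11.8 and 42.6 FPKM, GNRH1 1.55, 0.694 and 8.62, and DOCK5 28.5, 15.0 and 35.5. NEFL, between NEFM and DOCK5, was the member of the stretch that was lower in CTXR. To DU145, DOCK5 in CTXR stood at a log2 ratio of 0.31, inside the rule. Further along, PPP2R2A was not higher in CTXR (log2 ratio to DU145 -0.34), while BNIP3L, PNMA2 and DPYSL2, which follow it, were (1.06, 1.67 and 2.54). To DTXR, BNIP3L and PNMA2 stood inside the rule at 0.68 and 0.86, and DPYSL2 at 1.34. TRIM35, the next measured gene after DPYSL2, stood at 0.12 to DU145. In the C4-2B lineage none of these neighbours was higher in TaxR or CabR against C4-2B (2.52% and 2.67% of measured genes). Some were lower there (5.64% and 6.2% of measured genes). Within 1 Mb of NEFL 2 of 6 were lower in TaxR and 1 of 6 in CabR. Within 1 Mb of DPYSL2 2 of 9 were lower in TaxR and 3 of 9 in CabR.

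**Figure D4:**
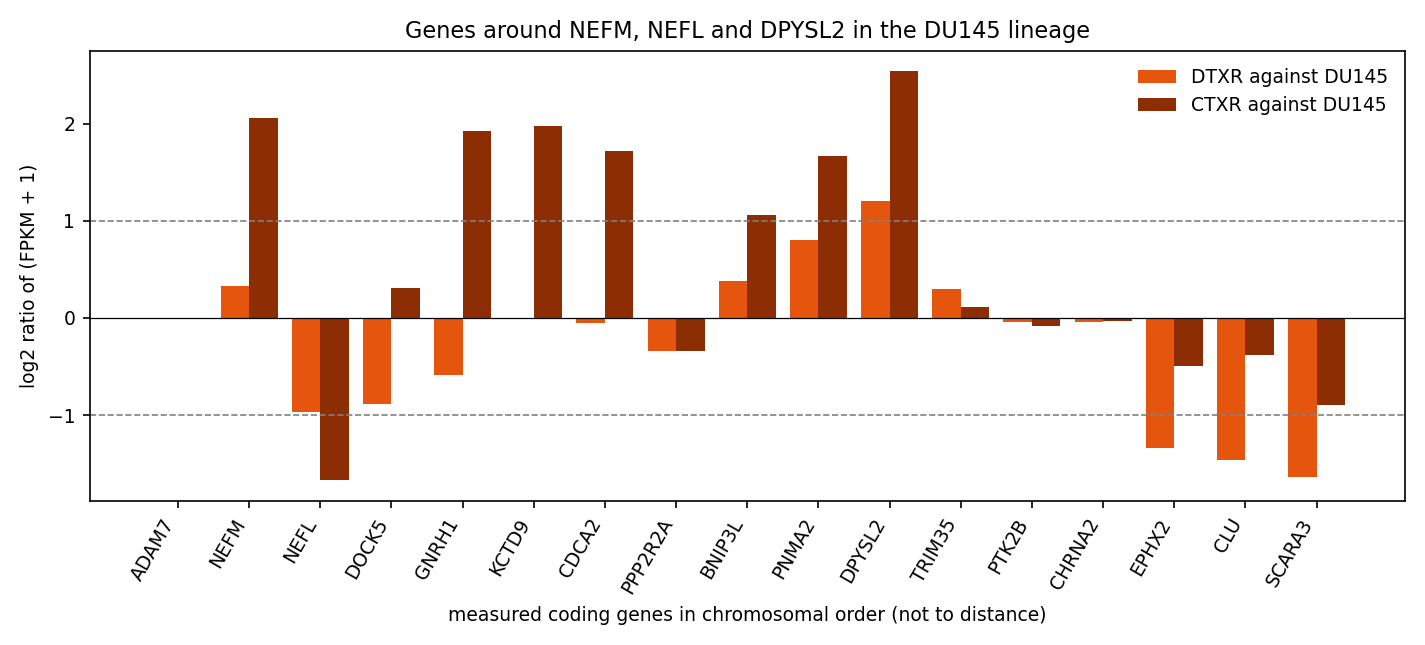
Log2 ratios of (FPKM + 1) to DU145 in DTXR (orange bars) and CTXR (brown bars) for the measured coding genes around NEFM, NEFL and DPYSL2, in chromosomal order and not spaced by distance; dashed lines mark the size rule. In CTXR, GNRH1, KCTD9 and CDCA2 stand at 1.72 to 1.97, NEFM at 2.05 and NEFL at -1.67.

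SYT4 was set beside the other 16 synaptotagmins of a list of 17. Of these, 7 including SYT4 reached 1 FPKM. SYT4 was the only one called in TaxR or CabR against C4-2B, where 8.16% and 8.87% of measured genes were called. SYT7, a slow calcium sensor, was the other abundant one there, with 21.8, 19.2 and 15.7 FPKM from C4-2B through TaxR to CabR. In the DU145 lineage SYT12 had 12.1, 3.99 and 9.73 FPKM and SYT3 2.36, 0.0528 and 0.938, both lower in DTXR (5.1% of measured genes). SYT17 had 4.57, 2.65 and 7.499 FPKM. The synaptotagmin medians were 0.24 for TaxR, -0.04 for CabR, -0.50 for DTXR and -0.29 for CTXR.

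The proteins that dock and fuse vesicles were read from a list of 23 genes, of which 18 were measured. SYPL1, a widely expressed relative of synaptophysin, and the vesicle SNARE VAMP2 were among the most abundant, at 58.4 to 162.3 and 30.7 to 51.1 FPKM over the 6 libraries. In TaxR and CabR none of the 18 was called in either direction (8.16% and 8.87% of measured genes were), with medians of 0.00 and 0.01. SYT4 was thus higher there without a call for any gene of this list. In DTXR 4 were higher and 3 lower (5.37% and 5.1% of measured genes). In CTXR 5 were higher and 1 lower (7.45% and 5.47%). The medians were -0.33 in DTXR and 0.20 in CTXR. STX1A, the syntaxin of neuronal exocytosis, had 16.2, 59.8 and 54.9 FPKM from DU145 through DTXR to CTXR. SV2A, a synaptic vesicle glycoprotein, had 0.185, 5.44 and 8.505 FPKM. CADPS2, a priming factor of dense-core vesicles, had 0.573, 8.83 and 3.51 FPKM, and the active zone scaffold RIMS2 15.7, 10.503 and 45.1. SYN2 went the other way, with 3.91, 0.564 and 0.859 FPKM. SNAP25, the partner of STX1A, had 1.72, 2.89 and 2.72 FPKM, inside the rule. Synaptophysin, SYP, a marker used in pathology, was lower in DTXR, with 5.78, 2.14 and 3.88 FPKM, and had 1.20, 0.463 and 0.4999 in C4-2B, TaxR and CabR.

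**Figure D5:**
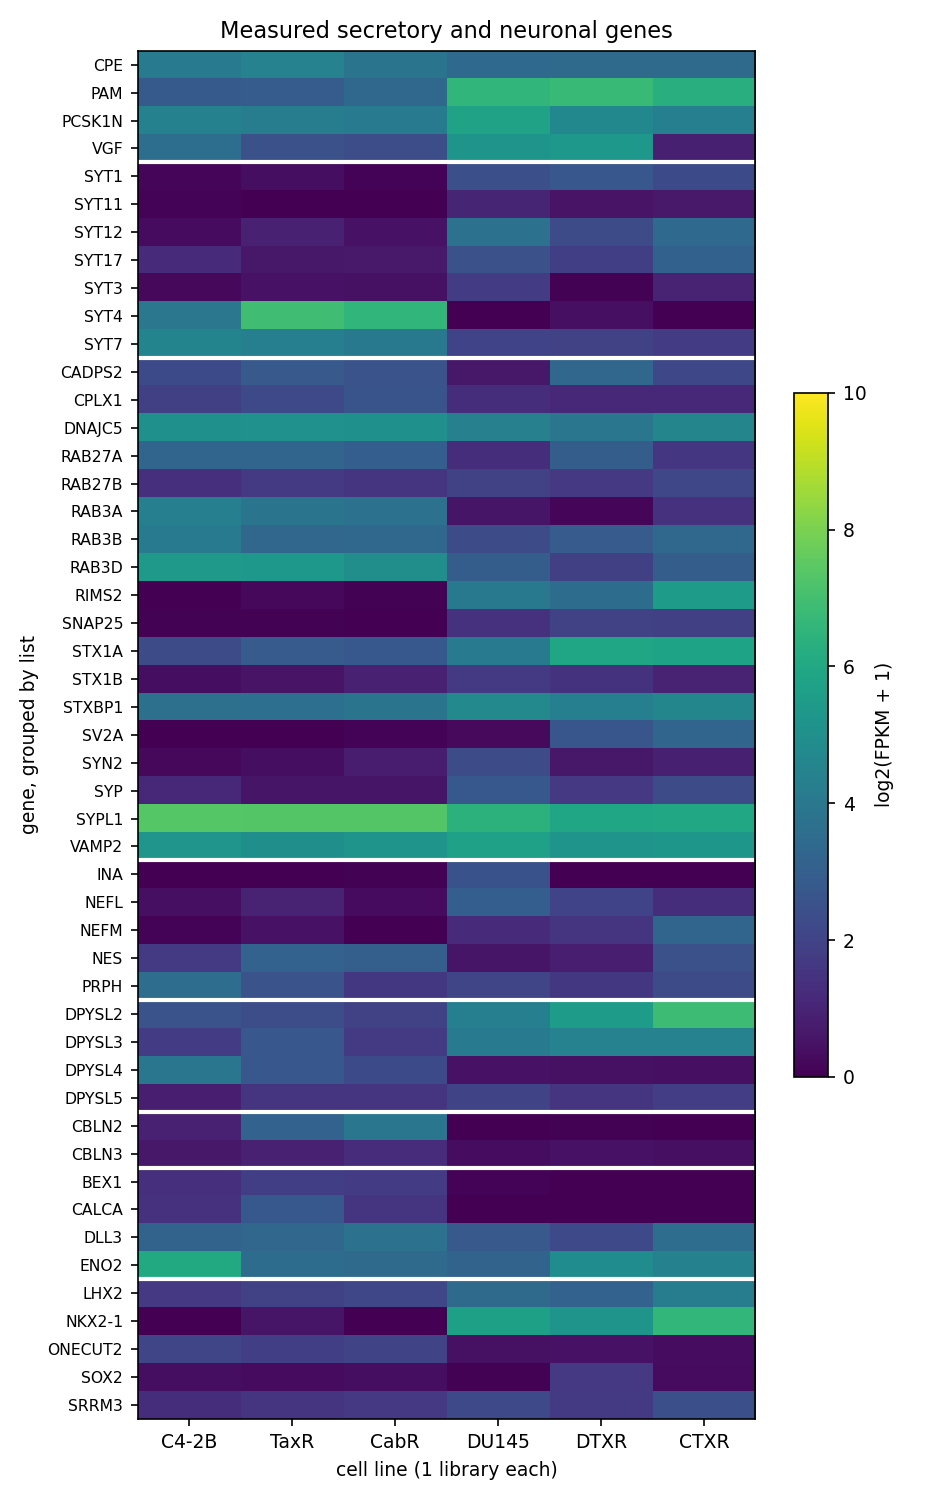
Levels as log2(FPKM + 1) of 49 measured genes of 8 lists in the 6 libraries, with white lines between granins, synaptotagmins, vesicle release genes, filaments, collapsin response mediators, cerebellins, clinical markers and transcription regulators. SYT4 is the synaptotagmin with the highest level in TaxR and CabR (120.7 and 94.4 FPKM), and NKX2-1 the regulator with the highest in the DU145 lineage (35.3 to 97.0 FPKM).

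The wider neuroendocrine programme was weakly represented. Of 18 clinical markers 5 reached 1 FPKM in C4-2B, 4 in TaxR and CabR, and 3 in each DU145-lineage library. NCAM1 was at or under 0.00794 FPKM, and SST, TAC1, CEACAM5 and ELAVL4 were listed at 0 in all 6. Neuron-specific enolase, ENO2, which is also a glycolytic enzyme, had 67.3, 10.7 and 9.84 FPKM from C4-2B through TaxR to CabR, and 8.19 in DU145, 28.3 in DTXR and 20.2 in CTXR. It was lower in both C4-2B sublines and higher in both DU145 sublines. DLL3, a Notch ligand used as a drug target in neuroendocrine tumours, had 8.18, 8.87 and 12.3 FPKM from C4-2B through TaxR to CabR and 5.88, 3.63 and 10.8 in DU145, DTXR and CTXR. It was not called against a parent. CALCA, the calcitonin gene, was higher in TaxR alone, with 1.71, 5.71 and 1.87 FPKM from C4-2B through TaxR to CabR.

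Of 16 transcription regulators tied to neuroendocrine identity, 5 were measured. INSM1, NEUROD1, NEUROG3, FOXA2, MYCN and SRRM4 each stayed at or under 0.157 FPKM in every library. POU3F2, listed at 0 in DU145, had 0.530 FPKM in DTXR and 0.940 in CTXR. PROX1, listed at 0 in DU145 and DTXR, had 0.577 FPKM in CTXR. Both stayed under 1 FPKM in every library. NKX2-1, a lung and neuroendocrine factor, had 49.9, 35.3 and 97.0 FPKM from DU145 through DTXR to CTXR. In TaxR it had 0.497 FPKM, 0.995% of its DU145 level, and it was listed at 0 in C4-2B and CabR. SOX2 was called higher in DTXR alone, at 2.13 FPKM against 0.0299 in DU145. ONECUT2 ranged over 0.276 to 0.409 FPKM in the DU145 lineage and 2.58 to 3.20 in the other. REST, the repressor that silences neuronal genes in other tissues, had 8.65 to 12.5 FPKM over the 6 libraries. None of the 8 genes of the REST complex list was called along either lineage, beside 3.59% to 12.9% of measured genes per comparison. With so few genes, no call is near that share. The list includes the histone deacetylases HDAC1 (61.5 to 132.9 FPKM) and HDAC2 (59.9 to 92.8). Of 11 luminal genes 1 was lower in TaxR (5.64% of measured genes) and 4 in CabR (6.2%). Their summed level was 5784, 5163 and 2788 FPKM from C4-2B through TaxR to CabR. KLK3 weighed most in the fall of this sum, with 3567, 3053 and 841 FPKM. From TaxR to CabR 4 were lower (1.84%) and 1 higher (1.75%), namely KLK2, with 514.7, 367.7 and 936.0 FPKM from C4-2B through TaxR to CabR. The part of the luminal genes in the levels of SYT4 and CBLN2 was not tested.

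For each measured member the 2 coding genes of nearest pattern were found by Euclidean distance over the 6 libraries on the centred log2(FPKM + 1) scale. SYT4 lay nearest to FN1, fibronectin, at a distance of 1.19, and then to CTAG2. FN1 had 71.7, 661.7 and 854.5 FPKM from C4-2B through TaxR to CabR and 2.12 to 4.28 in the DU145 lineage. CBLN2 lay nearest to VCX2 at 0.68 and FAM111B at 0.95, and VGF to NFIB at 1.39 and IGF1R at 1.70. NFIB, a transcription factor, had 10.1, 14.4 and 0.458 FPKM from DU145 through DTXR to CTXR, low in the same library as VGF. UCHL1 lay nearest to ANXA2 at 1.19 and C19orf33 at 1.29, DPYSL2 to PLBD1 at 0.27 and SMOX at 0.45, NEFM to RND2 at 0.31 and PDLIM5 at 0.47, and NEFL to CCL20 at 0.53 and SYPL2 at 0.66. VCX2 and CTAG2 belong to families of near-identical copies, so their reads are uncertain.

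Replication exists only across the 2 lineages, each of which has all 3 stages. A limma model of the 6 libraries with terms for stage and for lineage, and Benjamini-Hochberg adjustment, called 0 of 17436 genes at the docetaxel stage and 0 at the cabazitaxel stage (0% in both), and so no member. At an unadjusted p under 0.05 there were 772 and 835 genes. VGF at the cabazitaxel stage stood at -2.76 ± 0.89 (SE), from -1.26 in CabR and -4.27 in CTXR. Its limma adjusted p = 0.864. The difference was -0.94 without CTXR and -4.58 without CabR. SYT4 at the docetaxel stage stood at 1.68 ± 0.64 (SE), from 2.96 in TaxR and 0.40 in DTXR. Its limma adjusted p = 0.93. That difference was 0.39 without C4-2B, 1.05 without TaxR and 2.97 without DU145.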

How the data were processed

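TRIzol RNA went into directional mRNA-seq libraries, per the labels' protocols. HISAT, StringTie, Cuffnorm and GRCh38 stand in the submitters' processing notes with no version. The authors deposited 1 table of FPKM per library, per the file headers. Their annotation, strand setting and scaling between libraries: not given in the sources used here. An exact 0 can be a failed estimate. Of 60658 Ensembl identifiers 56550 matched a symbol, and GENCODE release 29 (GRCh38) gave coordinates.

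FPKM were used as deposited, as log2(FPKM + 1). A gene counted as measured at 1 FPKM or more in any library (17436 genes). Calls are by size (log2 ratio of at least 1), with no test. limma 3.58.1 in R 4.3.3 was run two-sided on these values, with eBayes and trend set. It was tested on simulated data, with the changes given to well-expressed genes. At the docetaxel stage it called 0 of 50 genes with a true log2 change of 1, 21 of 50 with 2 and 41 of 50 with 4. Changes near the size rule can thus go uncalled by limma. Read totals were not used here. Relative depth is the commonest ratio to C4-2B among genes above 0 and under 0.1 FPKM in both libraries, and the lowest step was read from single-transcript genes longer than 1500 bases. Python 3.11.15 with pandas 2.3.3, numpy 2.4.6 and matplotlib 3.10.9 was used.

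The members, lists and rules were chosen with earlier results of these data known. The rule named all 10 members, up to 4 genes of the highest level per list and 2 nearest genes per member. It was followed in part, and not every such list gene is named. Other list genes (SV2A, CADPS2, SYN2, SNAP25, POU3F2 and PROX1 among them), the chromosome 8 neighbours, PNMA2, AF106564.1 and AC107373.2 were chosen after their values were seen. Alternatives were other pseudocounts, filters, scalings and size rules, subtraction of the DU145 share from TaxR, a fit without lineage and leaving out each library. Subtraction of the lower quartile or median share of 24 genes was added after seeing the data. Some list genes are counted in their lists but not reported here by name.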

Additional observations from a re-analysis of the deposited data

Results flagged for a closer look

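Among the members no gene was called in opposite directions in the matching comparisons of the lineages. Among the other genes of the lists 3 were. The share of all measured genes called in opposite directions was not taken, so neither count has a background. With 1 library per line the differences between lineages were not tested. ENO2 stood at a log2 ratio of -2.55 in TaxR and 1.67 in DTXR, and at -2.65 in CabR and 1.21 in CTXR, each against its parent. LGALS1, a DU145-side marker, stood at -1.30 in CabR and 1.88 in CTXR against the parents, and at -2.07 in CabR against TaxR, with 2.02 in CTXR against DTXR. DKK1, another such marker, stood at 1.25 in TaxR and -1.58 in DTXR, and its TaxR level was 0.362% of that of DU145.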

How the results depend on the processing

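The counts of members past the size rule in TaxR against C4-2B, CabR against C4-2B, CTXR against DU145, CTXR against DTXR and DU145 against C4-2B stayed within 1.5 times under every alternative run. From TaxR to CabR the count of 1 became 3 with a pseudocount of 0.1 and 3 with a 1.5-fold size rule. In DTXR against DU145 the count of 1 became 3 with a pseudocount of 0.1, and 2 with a pseudocount of 0.5, with the same non-mitochondrial total, with the same upper quartile and with the 1.5-fold size rule. NEFL supplied the added call in each of those 5, with SYT4 at the pseudocount of 0.1. A single value counted as reversed only where the main value was called, so uncalled values that changed sign counted as kept. Such limma differences included VGF at the docetaxel stage, which went from -0.48 to 0.91 without TaxR. CBLN2 at that stage went from 1.16 to -0.13 without C4-2B. The settings with a filter of 5 FPKM or no filter cannot change a log2 ratio and also counted as kept. Counted so over single members, 551 values kept their direction or side of the rule, 20 came past it and 3 reversed. Of those 3, 2 are UCHL1 in TaxR against C4-2B, at -0.58 after subtraction of the median share of either the 3 or the 24 genes. The other is UCHL1 from TaxR to CabR, at 1.44 after the latter. In all 3 the subtraction went below 0 and the TaxR level was set to 0, so their size reflects only the other library. The median share was 1.34% in place of 1.81% with at least 20 FPKM. No gene was listed at 0 in both C4-2B and CabR with 50 FPKM in the DU145 lineage, so that alternative gave no value. The limma calls of 0 genes became 1 at the cabazitaxel stage with a pseudocount of 0.1. Leaving out 1 library gave 0 to 1 gene at either stage, the 1 at the docetaxel stage without DU145 and at the cabazitaxel stage without DU145 or without CTXR, and never a member. Without the lineage term 0 genes were called. In DU145 against C4-2B the higher and lower calls over all genes were 3009 and 3395, and 3892 and 2598 with the same non-mitochondrial total, which moved the median log2 ratio from -0.02 to 0.18. In CTXR against DU145 they were 1299 and 953, and 1129 and 1256. The labels carry no replicate numbers, so the lineage term of the limma model is the only block, and it sets each stage against the parent of its lineage. Low depth limits what can be said of CHGA, CHGB, SCG5 and, in the C4-2B lineage, NEFM.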
